A study of Mus musculus with 40 samples.

Results

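The chromosomal neighbourhoods of 10 Wnt pathway genes, *Lrp5*, *Lrp6*, *Axin1*, *Axin2*, *Apc*, *Ctnnb1*, *Tcf7*, *Tcf7l1*, *Tcf7l2* and *Lef1*, were examined in a reporter screen for enhancer activity in differentiating mouse cells. A fragment was assigned to a locus when its centre fell in the RefSeq gene body on mm10 or within 25 kb of it, and overlapping fragments of all libraries were merged into regions. The loci held 581 of 458486 library entries, which were 457 of 354627 distinct fragments and 102 of 75060 regions. The rule uses gene names and positions and no measured value.

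The cells were the 129/ola embryonic stem (ES) cell line HM-1, whose non-functional *Hprt* gene is repaired when the reporter integrates there. Fragments of Tn5-accessible chromatin from 5 stages were cloned before an HSP68 minimal promoter and a Venus-YFP reporter, mixed, and integrated so that a cell carried a single fragment, and pools of cells were then differentiated in serum. ES cells, FLK1+ hemangioblasts (HB), KIT+ TIE2+ CD41- hemogenic endothelium (HE1), KIT+ TIE2+ CD41+ hemogenic endothelium (HE2) and KIT+ TIE2- CD41+ progenitors (HP) were each sorted into Negative, Low, Medium and High YFP gates in 2 replicates, giving 40 libraries in 20 groups. All groups shared the cell line, the target site and the minimal promoter, and the Negative gate was set on cells carrying that promoter alone. A sort here means 1 stage in 1 replicate, and its positive fragments are the distinct fragments of its Low, Medium and High libraries together. The lists give each fragment once per library and hold no RNA, so the labelled cell types were not checked against markers.

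Wnt ligands bind Frizzled receptors together with LRP5 or LRP6, and this stops a complex built on AXIN and APC from marking β-catenin, the product of *Ctnnb1*, for destruction. β-catenin then enters the nucleus and joins the DNA-binding proteins TCF1 (*Tcf7*), TCF3 (*Tcf7l1*), TCF4 (*Tcf7l2*) and LEF1. *Axin2* is itself a widely used target gene of the pathway, and Wnt signals take part in forming mesoderm and blood. The fragments tested here carry the DNA around these genes, and a reporter reading does not show which gene a fragment serves.

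The loci differed widely in how much of their DNA was recovered. *Lrp5* (16 regions, 141 entries), *Tcf7l1* (21 regions, 128 entries) and *Lef1* (16 regions, 88 entries) held most fragments, followed by *Tcf7* (59), *Tcf7l2* (52), *Axin1* (48) and *Axin2* (35). *Apc* had 14 entries, *Lrp6* 10 and *Ctnnb1* 6. A single intronic region gave 39.0% of the entries at *Lrp5*, 59.3% at *Tcf7* and 90.4% at *Tcf7l2*. The reference sequences at the best-covered bases of these regions and of the leading *Tcf7l1* region are shown on the forward mm10 strand, as these are the leading regions described below. Capitals mark matches to the searched motifs on either strand.
Lrp5 intron 5, chr19:3645810-3646109: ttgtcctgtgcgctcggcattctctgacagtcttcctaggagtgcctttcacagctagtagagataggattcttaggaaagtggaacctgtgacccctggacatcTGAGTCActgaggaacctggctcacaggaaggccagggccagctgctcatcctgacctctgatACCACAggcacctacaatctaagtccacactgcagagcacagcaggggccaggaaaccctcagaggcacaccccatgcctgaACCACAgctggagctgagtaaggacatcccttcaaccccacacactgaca
Tcf7 intron 3, chr11:52262013-52262312: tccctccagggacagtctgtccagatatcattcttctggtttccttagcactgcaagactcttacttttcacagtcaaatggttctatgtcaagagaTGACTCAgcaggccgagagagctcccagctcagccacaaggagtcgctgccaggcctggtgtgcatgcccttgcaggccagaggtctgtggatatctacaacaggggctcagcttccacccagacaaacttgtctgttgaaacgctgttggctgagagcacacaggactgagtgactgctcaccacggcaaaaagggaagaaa
Tcf7l2 intron 3, chr19:55743504-55743803: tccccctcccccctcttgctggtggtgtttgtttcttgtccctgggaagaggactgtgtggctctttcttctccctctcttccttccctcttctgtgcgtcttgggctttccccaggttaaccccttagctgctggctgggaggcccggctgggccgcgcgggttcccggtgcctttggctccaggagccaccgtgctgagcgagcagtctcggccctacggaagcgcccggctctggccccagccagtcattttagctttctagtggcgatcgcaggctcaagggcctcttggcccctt
Tcf7l1 intron 3, chr6:72677499-72677798: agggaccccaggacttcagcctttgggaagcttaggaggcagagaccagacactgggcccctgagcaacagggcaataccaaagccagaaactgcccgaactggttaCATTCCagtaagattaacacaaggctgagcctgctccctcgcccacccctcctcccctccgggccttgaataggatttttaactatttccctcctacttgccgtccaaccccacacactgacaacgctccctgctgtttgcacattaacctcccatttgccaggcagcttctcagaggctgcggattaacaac
The *Lrp5* window held an AP-1 heptamer (TGAGTCA) and 2 RUNX hexamers, the *Tcf7* window an AP-1 heptamer (TGACTCA), and the *Tcf7l1* window a TEAD hexamer. The *Tcf7l2* window, with a GC content of 63%, held none of the searched motifs.

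TCF/LEF matches, searched as CTTTGAA and with CTTTGAT as a variant on either strand, were found in 11 of 102 windows of 300 bp at the member regions, or 10.8%, beside 10.7% of 75043 windows over all regions. *Axin2* had 4 of the 11, *Tcf7* 3, *Lrp5* 2, and *Lef1* and *Apc* 1 each. Of these 11 regions, 10 had at most 2 entries. The exception lay in intron 1 of *Lrp5*, where 10 positive and 3 Negative fragments were counted and a RUNX match stood beside the TCF/LEF match. Some of these fragments end before the TCF/LEF match, which starts at base 180 of the window. They include the only fragment of replicate 2, chr19:3665315-3665656, with 1 positive and 1 Negative entry. A second window is given for intron 2 of *Axin2*, where 1 positive fragment from HE1 replicate 2 was found. Both windows were chosen after the matches were seen.
Lrp5 intron 1, chr19:3665556-3665855: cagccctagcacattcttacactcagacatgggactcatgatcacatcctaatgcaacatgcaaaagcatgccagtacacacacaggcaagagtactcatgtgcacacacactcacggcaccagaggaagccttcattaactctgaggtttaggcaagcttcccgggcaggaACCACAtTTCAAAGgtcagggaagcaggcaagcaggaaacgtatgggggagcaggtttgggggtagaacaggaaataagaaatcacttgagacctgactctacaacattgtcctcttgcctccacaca
Axin2 intron 2, chr11:108927616-108927915: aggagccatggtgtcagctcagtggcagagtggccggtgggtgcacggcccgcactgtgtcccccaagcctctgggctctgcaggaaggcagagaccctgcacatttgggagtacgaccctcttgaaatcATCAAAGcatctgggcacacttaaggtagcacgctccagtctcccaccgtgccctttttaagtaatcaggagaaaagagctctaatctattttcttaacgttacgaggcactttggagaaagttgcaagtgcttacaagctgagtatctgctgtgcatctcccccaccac
Among the other motifs, each searched on both strands, SOX (ACAAAGG, with ACAATGG as a variant) occurred in 13.7% of member windows and 12.5% of all windows, AP-1 (TGAGTCA, which reads TGACTCA on the other strand) in 7.84% and 10.1%, the GATA motif searched as AGATAA in 12.7% and 16.5%, RUNX (TGTGGT) in 22.5% and 23.5%, and TEAD (GGAATG) in 21.6% and 18.7%. Median GC content was 52.3% in member windows and 49.3% over all windows. A motif match is a string of letters and does not show that a factor was bound. The windows of 300 bp were longer than many fragments, so a match can lie outside the DNA that was tested.

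**Figure D1:**
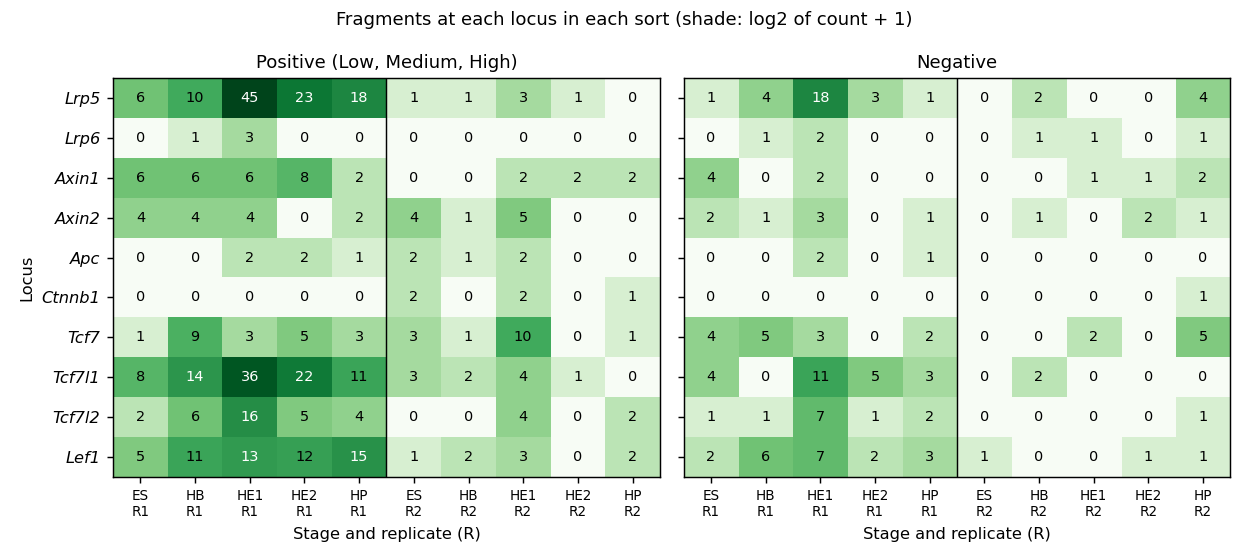
Fragments at each locus (rows) in each sort (columns, stage above replicate R) for positive fragments on the left and Negative fragments on the right, with the count printed and the shade on a log2 scale. Replicate 1 holds most entries, with 45 positive fragments at *Lrp5* in HE1, and *Ctnnb1* is at 0 in every sort of replicate 1.

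*Lrp5*, which encodes a Wnt co-receptor, had the densest locus of the members, with 7.38 distinct fragments per 10 kb. In replicate 1 its positive counts were 6 in ES, 10 in HB, 45 in HE1, 23 in HE2 and 18 in HP, and its Negative counts were 1, 4, 18, 3 and 1. In replicate 2 the positive counts were 1, 1, 3, 1 and 0 and the Negative counts 0, 2, 0, 0 and 4. Per 10000 fragments of the sort, the HE1 values of replicate 1 were almost level, at 4.41 positive (95% Wilson interval 3.30 to 5.91) and 4.35 Negative.

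The leading *Lrp5* region, chr19:3645774-3646449 in intron 5 of 22, lay 40473 bp downstream of the gene's start and contained 42 distinct fragments. It had 22 positive fragments in HE1, 10 in HE2 and 8 in HP, all of replicate 1, and 0 in ES and HB. These are 2.16, 1.46 and 2.02 per 10000 positive fragments, whereas a count of 0 allowed up to 1.08 per 10000 in ES and 0.770 in HB. Its Negative fragments numbered 12 in HE1, 1 in HE2 and 1 in HP of replicate 1, and 1 in HB of replicate 2. The region was thus found in both gates at the later stages, and in replicate 2 no positive fragment was found at any stage. With HE1 left out, replicate 1 had 18 positive and 2 Negative fragments there. The sets themselves were uneven, with 68427 positive and 8430 Negative fragments in HE2 and 39671 and 8458 in HP. Over all sorts the region had 40 positive fragments, where 42.2 were expected from the composition of the sorts. The stage pattern of single regions was not tested. The methods describe a filter for accessible chromatin at the matching stage. Its part in the absence of positive fragments from ES and HB was not tested.

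Several other parts of *Lrp5* were recovered mainly in replicate 1. A region in intron 7, 62588 bp from the start, had 15 positive fragments (2 in ES, 4 in HB, 6 in HE1 and 3 in HE2) and 1 Negative fragment. A region 13170 bp upstream, in an intron of *Gm36608*, had 13 positive and 3 Negative fragments and was positive at all 5 stages. In intron 21, 9 positive fragments were found, 7 of them in High libraries, and 2 Negative ones. *Lrp6*, the paralogous co-receptor, had only 4 positive and 6 Negative fragments in a window of 170.4 kb. All 4 positive ones came from the Medium gate of replicate 1, 1 in HB and 3 in HE1, and overlapped 3 Negative fragments in intron 3.

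*Axin1*, the scaffold of the destruction complex, had 34 positive and 10 Negative fragments in 5 regions. Positive counts in replicate 1 were 6 in ES, 6 in HB, 6 in HE1, 8 in HE2 and 2 in HP, and Negative counts were 4, 0, 2, 0 and 0. Its leading region, chr17:26119970-26120607, lay 10928 bp upstream of *Axin1* in an exon of *Pgap6*, and held 24 positive and 6 Negative fragments, all from replicate 1. The window assigned to *Axin1* also contains 6 other coding genes, and the start nearest to this region was that of *Mrpl28*, 3214 bp away.

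Inside *Axin1*, replicate 2 contributed a region in intron 2 made of only 2 distinct fragments, which shared their start and differed by 1 bp in length (327 and 326 bp). The longer was listed in 9 libraries and the shorter in 4. Both came from HE1, HE2 and HP, and the longer was present in every gate. Each of the 3 sorts had both fragments among its positives, and Negative counts were 1 in HE1, 1 in HE2 and 2 in HP. With fragments whose ends lay within 5 bp of each other collapsed, this pair counts as 1. At *Axin2*, a 137 bp fragment was listed in 5 libraries of the same replicate, 2 positive and 3 Negative, from ES, HB, HE2 and HP. These fragments, selected after their libraries were known, were listed in libraries of more than 1 gate. Whether cells carrying them were sorted to each of these gates was not tested. The first 300 bp of the *Axin1* fragment, with a RUNX match in capitals, and the whole *Axin2* fragment read as follows on the forward strand.
Axin1 intron 2, chr17:26161235-26161534: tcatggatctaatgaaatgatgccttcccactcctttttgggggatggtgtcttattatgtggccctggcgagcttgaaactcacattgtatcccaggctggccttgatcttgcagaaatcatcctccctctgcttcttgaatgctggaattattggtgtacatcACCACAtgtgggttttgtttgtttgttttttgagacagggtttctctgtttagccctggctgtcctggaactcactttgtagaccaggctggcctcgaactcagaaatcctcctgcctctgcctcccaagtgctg
Axin2 upstream, chr11:108906837-108906973: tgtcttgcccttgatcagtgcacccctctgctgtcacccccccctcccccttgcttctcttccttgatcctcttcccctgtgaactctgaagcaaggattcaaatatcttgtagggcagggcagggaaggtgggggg
The *Axin2* fragment belongs to the leading region of that locus, chr11:108906637-108907076, which lay 10971 bp upstream of the gene and had 8 positive and 7 Negative fragments.

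*Axin2*, a negative regulator that Wnt signals induce, had 24 positive and 11 Negative fragments in 14 regions, all 14 nearest to an *Axin2* start. Positive counts were 4 in ES, 4 in HB, 4 in HE1, 0 in HE2 and 2 in HP in replicate 1, and 4, 1, 5, 0 and 0 in replicate 2. Negative counts were 2, 1, 3, 0 and 1 in replicate 1 and 0, 1, 0, 2 and 1 in replicate 2. The counts were of similar size in the replicates although replicate 2 had 97305 entries in all and replicate 1 361181. The *Axin2* regions positive in replicate 1 and in replicate 2 numbered 7 each, of which 2 were the same.

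*Ctnnb1*, which encodes β-catenin, had 6 entries in 6 regions and no fragment in replicate 1, where a count of 0 allowed at most 0.0831 per 10000 entries. In replicate 2 its positive fragments numbered 2 in ES, 2 in HE1 and 1 in HP, and 1 Negative fragment was found in HP. Only the Negative fragment lay in the gene body, in intron 1. With 1 fragment in each region, the region with the lowest coordinate stands first by the naming rule, 9304 bp upstream with a Medium fragment of ES. *Apc*, whose product captures β-catenin for destruction, had 10 positive and 3 Negative fragments in 5 regions. Its region with most distinct fragments, 3, lay 17888 bp upstream and had 1 positive and 1 Negative fragment in HE1 and 2 positive ones in HE2, all of replicate 1. The *Apc* region with most entries, 5, was in intron 1, 38933 bp from the start, and was positive in HE1 of replicate 1 and in ES and HB of replicate 2.

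*Tcf7l1*, the TCF factor known as a repressor in ES cells, had 101 positive and 25 Negative fragments. In replicate 1 positive counts were 8 in ES, 14 in HB, 36 in HE1, 22 in HE2 and 11 in HP, beside Negative counts of 4, 0, 11, 5 and 3. In replicate 2 they were 3, 2, 4, 1 and 0, beside 0, 2, 0, 0 and 0. The positive share in replicate 1 stayed between 2.77 and 3.59 per 10000 at all 5 stages, and its HE1 positive set was the largest, at 101943 fragments. In replicate 2 the share ran from 0 in HP to 3.33 in ES. The part of set size in the HE1 count was not tested. In HB of replicate 1, the 0 Negative fragments allowed up to 3.56 per 10000, just under the positive share of 3.59 (95% interval 2.14 to 6.03). Fragments were spread over 21 regions, 16 of them inside the gene. The leading one, chr6:72677115-72678069 in intron 3, had 18 positive and 8 Negative fragments and made up 20.3% of the locus.

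*Tcf7l2* showed the opposite layout. A region 2007 bp downstream of its start, chr19:55743527-55744081 in intron 3, held 47 of the 52 entries (90.4%). It also lay 601 bp upstream of the non-coding gene *Gm31734* and was the only member region within 1500 bp of the start of a curated RefSeq transcript. Its positive fragments numbered 2 in ES, 6 in HB, 16 in HE1, 5 in HE2 and 4 in HP of replicate 1 and 2 in HP of replicate 2. The Negative fragments numbered 1, 1, 7, 1 and 2 in replicate 1 and 0 in replicate 2. All 5 stages were therefore positive, 14 fragments were in High, 17 in Medium and 4 in Low.

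*Tcf7*, which encodes TCF1, was the member locus with the largest Negative portion among those with at least 20 fragments, with 36 positive and 21 Negative fragments. Its leading region, chr11:52261713-52262421 in intron 3 of 10, had positive counts in replicate 1 of 1 in ES, 7 in HB, 3 in HE1, 5 in HE2 and 3 in HP, with Negative counts of 2, 5, 3, 0 and 2. Replicate 2 added 1 positive and 2 Negative fragments in HE1 and 1 Negative fragment in HP. Summed over replicates, the Negative counts exceeded the positive ones in ES and HE1 and equalled them in HP. A second *Tcf7* region, 16310 bp upstream, had 8 positive and 0 Negative fragments, all of replicate 2: 2 in ES, 1 in HB and 5 in HE1, from the Low and Medium gates. Its 5 distinct fragments, apart from chr11:52299829-52299935, had ends within 5 bp of each other. The HE1 sort of replicate 2 held 34809 positive but only 2773 Negative fragments in all. The region had too few fragments for the test.

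*Lef1* had 64 positive and 23 Negative fragments. Positive counts were 5, 11, 13, 12 and 15 from ES to HP in replicate 1 and 1, 2, 3, 0 and 2 in replicate 2. Negative counts were 2, 6, 7, 2 and 3, and 1, 0, 0, 1 and 1. A region in intron 3 of *Lef1*, 29396 bp from the start, had 7 positive fragments in HE1, 4 in HE2 and 3 in HP, all of replicate 1, and had 0 positive fragments in ES and HB, with 3 Negative fragments in HE1. Its positive values were 0.687, 0.585 and 0.756 per 10000 in HE1, HE2 and HP. A count of 0 allowed up to 1.08 in ES and 0.770 in HB of replicate 1, so the counts of 0 do not set these stages apart. A region 24998 bp upstream had 13 positive fragments, 7 of them in HP, and 7 Negative ones, 5 of them in HB, and 2 of its 20 entries had their centres outside the window. The region with most *Lef1* entries, chr3:131237831-131238433, was in an intron of the neighbouring gene *Hadh*, with 17 positive and 10 Negative fragments.

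**Figure D2:**
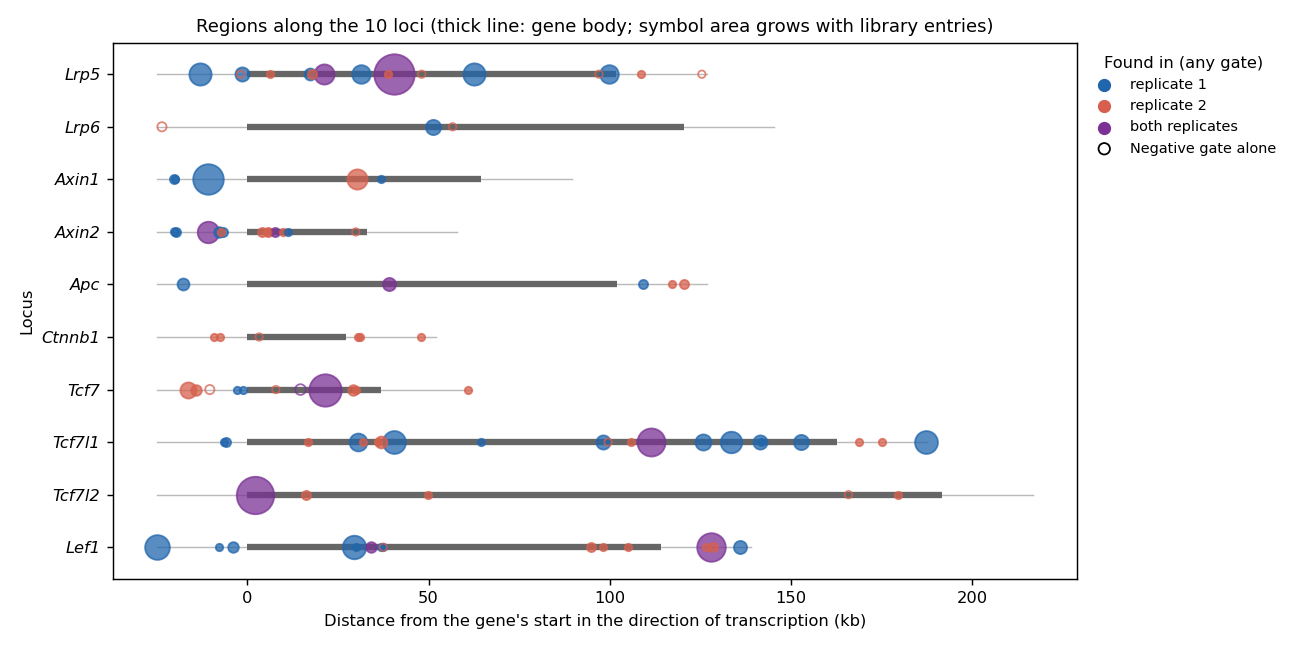
Each of the 102 regions at its distance in kb from the start of its gene, in the direction of transcription, with symbol area growing with the number of library entries and colour giving the replicate in which any gate held it. The largest symbols are intronic at *Lrp5*, *Tcf7l2* and *Tcf7*, and *Ctnnb1* has replicate 2 symbols alone.

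By annotation, 65 of the 102 regions were intronic, 32 intergenic and 5 exonic, and 59 lay inside the body of the member gene. The start nearest to the region belonged to the member in 62 cases. The methods separate promoter from distal fragments by a distance of 1500 bp, and 1 of the 102 regions lay closer than that to the start of a curated transcript. Measured from the start of the gene record, a *Tcf7* region with 1 positive fragment lay 1155 bp upstream, or 1524 bp from the nearest curated start.

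Regions were mostly seen in 1 replicate. Of the 87 member regions with a positive fragment, 50 were positive in replicate 1, 44 in replicate 2 and 7 in both, which is 8.05% (95% Wilson interval 3.95 to 15.7) beside 8.14% of 63070 positive regions overall. The 7 were 2 regions of *Axin2* and 1 each of *Apc*, *Lef1*, *Lrp5*, *Tcf7* and *Tcf7l2*. At the same stage, both replicates were positive in 0 of 33 regions in ES, 1 of 35 in HB, 2 of 48 in HE1, 1 of 27 in HE2 and 1 of 26 in HP. These are 0%, 2.86%, 4.17%, 3.70% and 3.85%, and over all regions the shares were 4.82%, 5.73%, 5.75%, 2.48% and 3.36%. Identical fragments were shared by the replicates in 5 of 457 cases (1.09%, against 0.957% of all fragments), at *Lef1* (2), *Tcf7* (2) and *Axin2* (1), and 4 of these 5 were Negative in at least 1 library. The replicates also differed in fragment length, with a median of 166.5 bp in replicate 1 and 313 bp in replicate 2 for positive member fragments. The part of depth and length in the small overlap was not tested.

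Positive and Negative regions overlapped in these loci. Positive fragments alone were found in 55 regions (53.9%, against 54.3% of all regions), both kinds in 32 (31.4% against 29.7%) and Negative fragments alone in 15 (14.7% against 16.0%). Over all sorts, 51 of 146 Negative member fragments were also in a positive list of the same sort (34.9%, against 36.3% of all fragments). HE1 of replicate 1 accounted for 44 of the 51, since 80% of its 55 Negative member fragments were also positive, against 71.3% of all its Negative fragments. Without that sort the share was 7 of 91, or 7.69%, against 12.9% over all fragments.

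**Figure D3:**
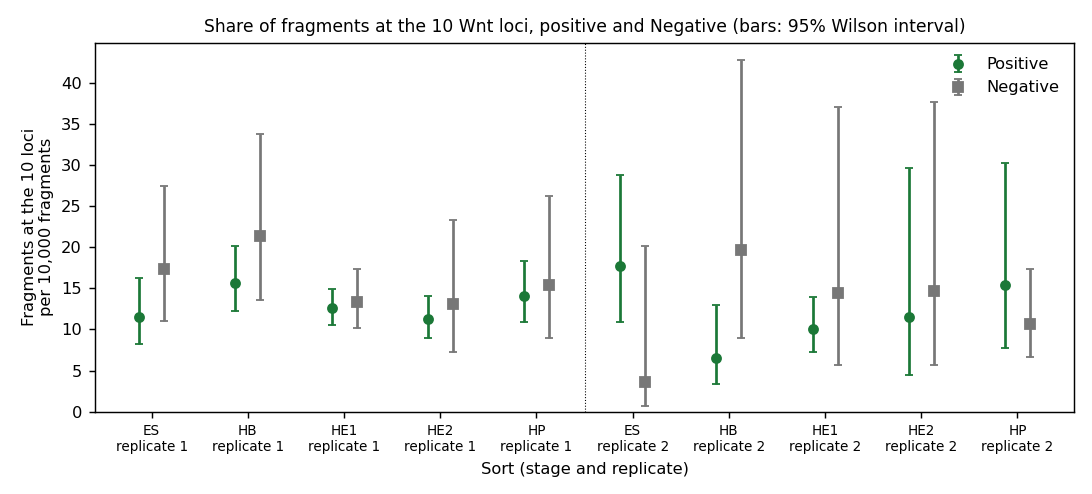
Fragments at the 10 loci per 10000 fragments of each sort, for positive (circles) and Negative (squares) fragments, with bars for 95% Wilson intervals, which cover counting error only. The positive share is the lower of the pair in all 5 sorts of replicate 1 and is the higher in ES and HP of replicate 2, and intervals overlap in each sort.

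Taken over the 10 loci, the positive share was 12.6 ± 3.21 per 10000 and the Negative share 14.3 ± 4.95 (SD, n = 10 sorts), a difference of -1.71 ± 7.19. Positive counts were 32, 61, 128, 77 and 56 from ES to HP in replicate 1 and 16, 8, 35, 4 and 8 in replicate 2. Negative counts were 18, 18, 55, 11 and 13, and 1, 6, 4, 4 and 16. The positive share was higher than the Negative share in 2 of 10 sorts. By gate in replicate 1, the share was 16.1 ± 3.43 in Negative, 14.9 ± 6.61 in Low, 13.2 ± 2.01 in Medium and 12.3 ± 2.07 in High (SD, n = 5). In replicate 2 it was 12.6 ± 5.97, 8.21 ± 5.41, 13.4 ± 6.11 and 20.0 ± 15.1, so the order of the gates was not the same. Neighbouring gates differed by less than the larger of their SDs in each replicate.

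The question whether a locus yielded more positive than Negative fragments was asked of all RefSeq loci with at least 20 fragments. With limma, 0 of 12795 loci (0%) passed an adjusted p of 0.05, and 527 had an unadjusted p under that value. Of the members, 7 had enough fragments and 0 were called. The largest estimate was 0.81 ± 0.65 (SE) on the log2 scale for *Tcf7l1* (5 sorts higher, 4 lower and 1 with no fragment of either kind), followed by *Axin1* at 0.44 ± 0.61, *Lrp5* at 0.26 ± 0.65 and *Tcf7l2* at 0.23 ± 0.57. *Lef1* was at -0.07 ± 0.65, *Tcf7* at -0.14 ± 0.63 and *Axin2*, lower in 7 of 10 sorts and higher in 2, at -0.32 ± 0.60. The limma adjusted p was 1.00 for each of the 7. Their median was 0.23, beside a median of 0.24 over all loci tested, so the values are to be read against that shift. With the sort as a block, 2 of 12795 loci (0.0156%) were called by limma, *Mien1* and *Grb7*, neither of them a Wnt gene, and the adjusted p of the members ran from 0.567 for *Tcf7l1* to 0.974 for *Lef1*. In this limma fit 1363 loci had an unadjusted p under 0.05, and the SE for *Tcf7l1* was 0.49. The Cochran-Mantel-Haenszel test on fragments called 13 of 12795 loci and 0 members. Its ratio of observed to expected positive fragments was 1.02 for *Tcf7l1*, 1.06 for *Axin1*, 1.002 for *Lrp5* and 0.998 for *Tcf7l2*. The ratio was 0.943 for *Lef1*, 0.903 for *Axin2* and 0.823 for *Tcf7* (unadjusted p = 0.0112, Cochran-Mantel-Haenszel test). The excess at *Tcf7l1* in limma was thus almost absent in this test. *Apc*, *Lrp6* and *Ctnnb1* had too few fragments for the test.

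At the level of regions, 10 of 5530 (0.181%) were called by a Cochran-Mantel-Haenszel test stratified by sort, all with fewer positive fragments than expected, and 191 had an unadjusted p under 0.05. Of the 7 member regions tested, 0 were called. The *Tcf7* intron 3 region had 0.716 times its expected positive fragments (unadjusted p = 0.00111, adjusted p = 0.361, Cochran-Mantel-Haenszel test), and the *Lef1* region in *Hadh* 0.786 times (unadjusted p = 0.0431, adjusted p = 1.00). Without fragments listed as both positive and Negative in a sort, where 13 of 4215 regions (0.308%) were called, 12 of them with fewer positive fragments, the *Tcf7* region passed, at 0.694 times and an adjusted p of 0.0403. Under the other alternatives its adjusted p ran from 0.08 to 1, the latter with near-identical fragments collapsed among others. The ratio was 0.851 at the *Lef1* upstream region, 0.879 at *Tcf7l1* intron 3, 0.948 at *Lrp5* intron 5, 0.997 at *Tcf7l2* and 1.02 at the *Axin1* upstream region. Fragments of a sort are not independent replicates, so these p-values describe the fragments of these libraries.

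**Figure D4:**
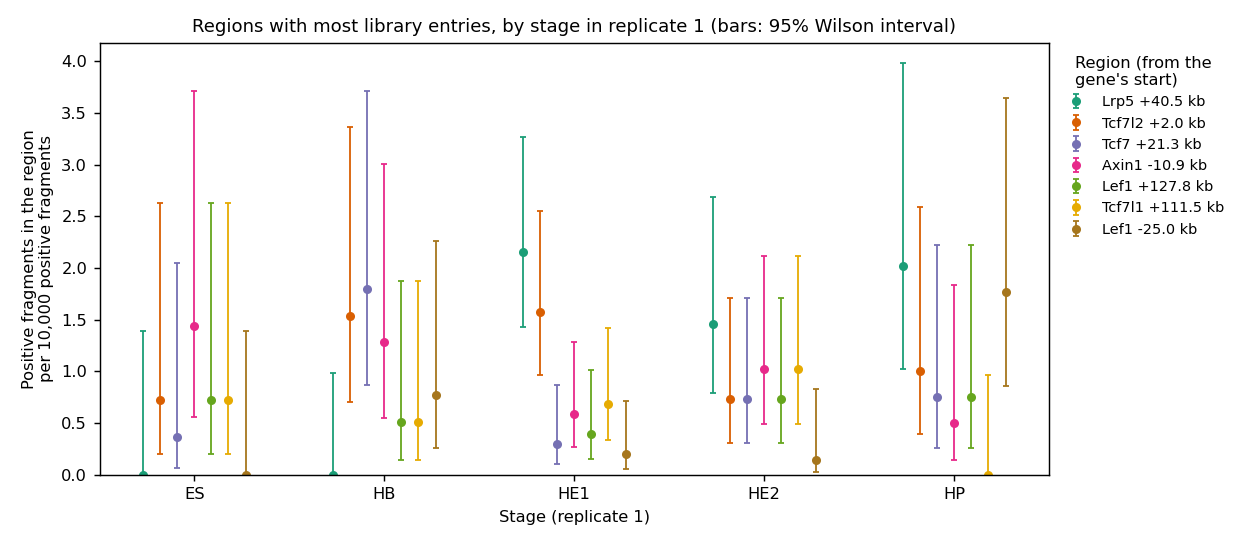
Positive fragments per 10000 in replicate 1, by stage, for the 7 member regions with most library entries, with bars for 95% Wilson intervals that cover counting error only. The *Lrp5* region stands at 0 in ES and HB and at 2.16, 1.46 and 2.02 in HE1, HE2 and HP.

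Differences between stages were tested on the positive values of each locus with the spread between replicates as error. With limma's F test, 0 of 10932 loci (0%) were called, and 16 (0.146%) had an unadjusted p under 0.05. That is a smaller share than this threshold gives when no locus differs. The absence of calls thus does not show that the stages were alike. For the 7 members with enough positive fragments the unadjusted p ran from 0.246 for *Axin2* to 0.884 for *Lrp5*, and the limma adjusted p was 1.00 for each. With the replicate as a block in limma's F test, the unadjusted p ran from 0.0191 for *Axin2* to 0.737 for *Lrp5*. The adjusted p of that limma fit was 0.949 for *Axin2* and 0.963 for *Lrp5*.

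Other genes of the pathway were read from the same fit. Of 78 listed genes, 76 had a fragment within the window and 44 had enough to test. These were 15 of 23 ligands and R-spondins, 6 of 16 receptors, 0 of 2 secretion factors, 6 of 14 inhibitors, 6 of 8 signal transducers, 6 of 8 nuclear cofactors and 5 of 7 target genes. Limma called 0 higher and 0 lower in positive fragments, with or without the block, and 2 had an unadjusted p under 0.05. The median estimate of the 44 was 0.24 on the log2 scale, equal to that of all loci at this rounding. By group the medians were 0.38 for ligands, 0.36 for receptors, 0.43 for inhibitors, 0.48 for signal transducers, 0.21 for nuclear cofactors and -0.23 for target genes. No group was tested against the others. Across stages, 0 of 42 tested were called.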

How the data were processed

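Per the labels, each library is the set of inserts recovered from 1 stage, YFP gate and replicate. The deposited lists hold genomic coordinates of fragments, in base pairs, each listed once per library and without read counts or other values. The submitters' processing notes name Trim Galore, Bowtie2, SAMtools, bedtools, HOMER and mm10, with no versions in the sources used here. The methods describe removal of background fragments and a separation of promoter from distal ones. Between these steps, they keep only fragments in open chromatin that also have a peak of accessible chromatin at the matching stage. Which filter had been applied to a list is not stated. Whether a filter removed fragments from the lists of single stages was not tested. PCR without molecular identifiers makes fragments dependent, so the 95% Wilson intervals, and the limits of 3 counts set where none was seen, reflect counting error alone.

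Libraries held 654 to 51146 fragments. All fragments on chromosomes lay within the chromosome lengths of RefSeq's GRCm38, the build of mm10, whose genes gave the loci and whose sequence gave the windows. Another 36 entries were on scaffolds and were not checked. Libraries were grouped by their titles. The log2 of fragments per 1000, with a prior of 1 fragment scaled to the size of each set, was fitted with limma 3.58.1 (R 4.3.3) for those of 39087 RefSeq loci with at least 20 fragments, with stage as covariate, or across stages on positive values. Regions with at least 20 fragments were tested with the Cochran-Mantel-Haenszel test in Python 3.11.15. Adjusted p-values are Benjamini-Hochberg over everything tested. All tests were checked on simulated data, where the stage test also called some unchanged loci at this depth. Deviations of positive and Negative values of the same stage and replicate number correlated at 0.304 to 0.491 in the 5 stages. The part in this of fragments listed as both kinds in a sort was not tested. Between stages, deviations of positive values correlated at 0.293 to 0.442 in 10 pairs. The numbers thus pair the samples in these data. The main estimates and SEs are from the fit without the block, and the fit with the sort as a block is given where it moves a count. The labels do not say that replicates are separate cultures of transfected cells, so p-values measure the spread between these samples.

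All members were named, with the region of most distinct fragments at each locus and each region of at least 20 fragments. Sequences were the windows of 300 bp at the best-covered base of such regions, with 4 more chosen after their values were seen. The members, lists and tests were chosen with earlier results of these data known. Alternatives were a minimum of 50 or 10 fragments, a prior of 3, the block, near-identical fragments (5 bp) collapsed, a window of 10 kb, Medium and High alone, fragments of both kinds left out, and each sort and replicate left out.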

Additional observations from a re-analysis of the deposited data

Results flagged for a closer look

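Among 32 sets of 5 sorts of a replicate, 4 had a sort far from the others by Dixon's criterion. The criterion's chance rate of about 1 in 20 holds for normally distributed values, which these sparse counts are not. A set with only 1 sort above 0 always meets it, as the Negative sets of *Tcf7l1* and *Tcf7l2* in replicate 2 did. The positive share at *Tcf7* in HB of replicate 1 was 2.31 per 10000, against 0.756 for the next highest stage. The Negative share at *Axin1* in ES of replicate 1 was 3.86 per 10000 (4 fragments), against 0.483 for the next. In replicate 2, the Negative share at *Tcf7l1* was 6.55 per 10000 in HB (2 fragments) and that at *Tcf7l2* was 0.669 in HP (1 fragment), and the other 4 stages were at 0 in both cases. For *Tcf7l2* those counts of 0 allowed 9.82 to 11 per 10000, far above 0.669, so this value does not set HP apart from the other stages. For *Tcf7l1* they allowed 10.7 in ES, 10.8 in HE1 and 11 in HE2, above 6.55, and 2.01 in HP. The *Tcf7l1* value thus does not set HB apart from ES, HE1 or HE2.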

How the results depend on the processing

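No member locus passed the test under any alternative run, with adjusted p from 0.567 to 1. Over all loci, the replicate block called 2 and the Cochran-Mantel-Haenszel test 13, and the other alternatives 0. The count of 10 called regions became 17 with a minimum of 10 fragments, 23 with no replicate block (replicates pooled), 0 with near-identical fragments collapsed and 3 with Medium and High alone. Leaving out sorts or replicates gave 5 to 17: 5 without HE1 of replicate 2, 6 without HB of replicate 2 and 17 without HP of replicate 2. The numbers tested also changed. Without replicate 1, 14 of only 124 tested regions were called, and without replicate 2, 5 of 5151. The cause was not tested. The block changed no other call.

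Signs of several estimates were not stable. *Lef1* moved to 0.38 with a 10 kb window, and *Tcf7l2* to -0.0025 in the Cochran-Mantel-Haenszel test. Leaving out a sort or replicate gave -0.40 to 0.29 for *Lef1*, -0.85 to 0.24 for *Tcf7*, -0.33 to 0.36 for *Tcf7l2*, -0.76 to 0.11 for *Axin2* and -0.022 to 0.62 for *Lrp5*, while *Tcf7l1* (0.52 to 1.13) and *Axin1* (0.25 to 1.19) stayed above 0. For regions, the ratio at the *Axin1* upstream region was 0.971 with Medium and High alone and 0.980 to 1.13 when leaving out a sort or replicate. At *Tcf7l2* it was 1.02 with Medium and High alone, 1.02 without fragments of both kinds, and 0.954 to 1.03 when leaving out. The difference in member share was -3.07 per 10000 without replicate 2 and -0.35 without replicate 1. The stage test could not be fitted with a whole replicate left out, for lack of residual degrees of freedom. Of 21774 coding loci, 63.2% had under 20 fragments and could not be tested, 3 of the 10 members among them. The part of depth in the changes of sign was not tested.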
